A study of Homo sapiens with 9 samples.

Results

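The genes described here build the mitotic spindle, attach chromosomes to it and control the exit from mitosis. Levels of their RNA were taken in LAN-5 cells, a long-established neuroblastoma line of human origin, grown in complete DMEM. There were 3 groups of 3 arrays, described by the submitters as biological replicates: cells in culture medium alone (untreated), cells given 0.5 nM S100B and cells given 5 µM S100B. S100B is a calcium-binding protein that astrocytes and Schwann cells make and release. The length of the treatment is not given in the sources used here, and all groups are cultures of a single line. The members are 37 genes listed by name for their function in mitosis, with no threshold on a measured value. The list was made with earlier results of these data known, so counts over it are a description. Of these, 34 had a probe set annotated to that gene alone, among 7713 such genes in the whole table. CENPA shared its probe set with other symbols, and CCNB1 and DLGAP5 had no entry. CENPF, a kinetochore protein, was too dim to be tested, with a mean of 5.61 on the log2 scale. This left 33 tested genes.

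Entry into mitosis is driven by CDK1 bound to cyclin B, which CDC25 phosphatases switch on and which works beside the Polo-like and Aurora kinases. Kinetochores then bind spindle microtubules, and the spindle checkpoint proteins MAD2 and BUBR1 hold back CDC20, the activator of the anaphase-promoting complex, until every chromosome is attached. Destruction of securin and cyclin B then frees separase, chromatids part, and the central spindle directs the cleavage furrow. Many of these genes are transcribed mainly in G2 and mitosis. In RNA from a whole culture, fewer cells in mitosis and less RNA in each such cell cannot be told apart.

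Values are GCRMA log2 levels, so a difference of -0.29 is a level at 81.8% of the other group. Errors after ± are standard errors of the fit for a difference and SDs over 3 arrays for a mean. A gene was called when its limma p-value, adjusted by Benjamini-Hochberg over all 5830 tested probe sets, was under 0.05. The 95% interval of a difference reached 0.156 to either side in the median probe set. Array medians ran from 6.60 to 6.64 and arrays of a group correlated at 0.993 to 0.997, against 0.994 to 0.997 between groups. Genes that mark sympathetic neuroblastoma cells were bright, among them GATA3 at 11.93, ISL1 at 11.43 and DBH at 10.44, while TH and INSM1, also on that list, lay below the filter on dim probe sets. Markers of leukocytes and epithelium were mixed: PTPRC and EPCAM read 4.77 and 5.00, below the filter, while CD3E (7.29) and KRT18 (6.99) lay above it.

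Most of the mitotic genes were lower with 5 µM S100B than in untreated cells, by small amounts. The difference was below 0 for 30 of the 33 genes, against 61.9% of all tested probe sets, with a median of -0.16 and a range of -0.30 to 0.04; the median over all probe sets was -0.0237. No member was called by limma, where 0.292% of all probe sets were called in either direction, all of them lower (0% higher). The smallest adjusted p among members was 0.0888, for PLK1. At an unadjusted p under 0.05, 11 members were lower and none higher, against 5.35% lower and 1.49% higher of all probe sets. For 16 members the 3 treated arrays all lay below the 3 untreated arrays, against 9.47% of all probe sets, and for no member did they all lie above, against 2.86%. With the arrays rescaled to equal medians, 29 members stayed below 0 against 50.4% of all probe sets, and with quantile normalization 29 against 49%; CDK1 crossed to 0.02 in both.

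**Figure D1:**
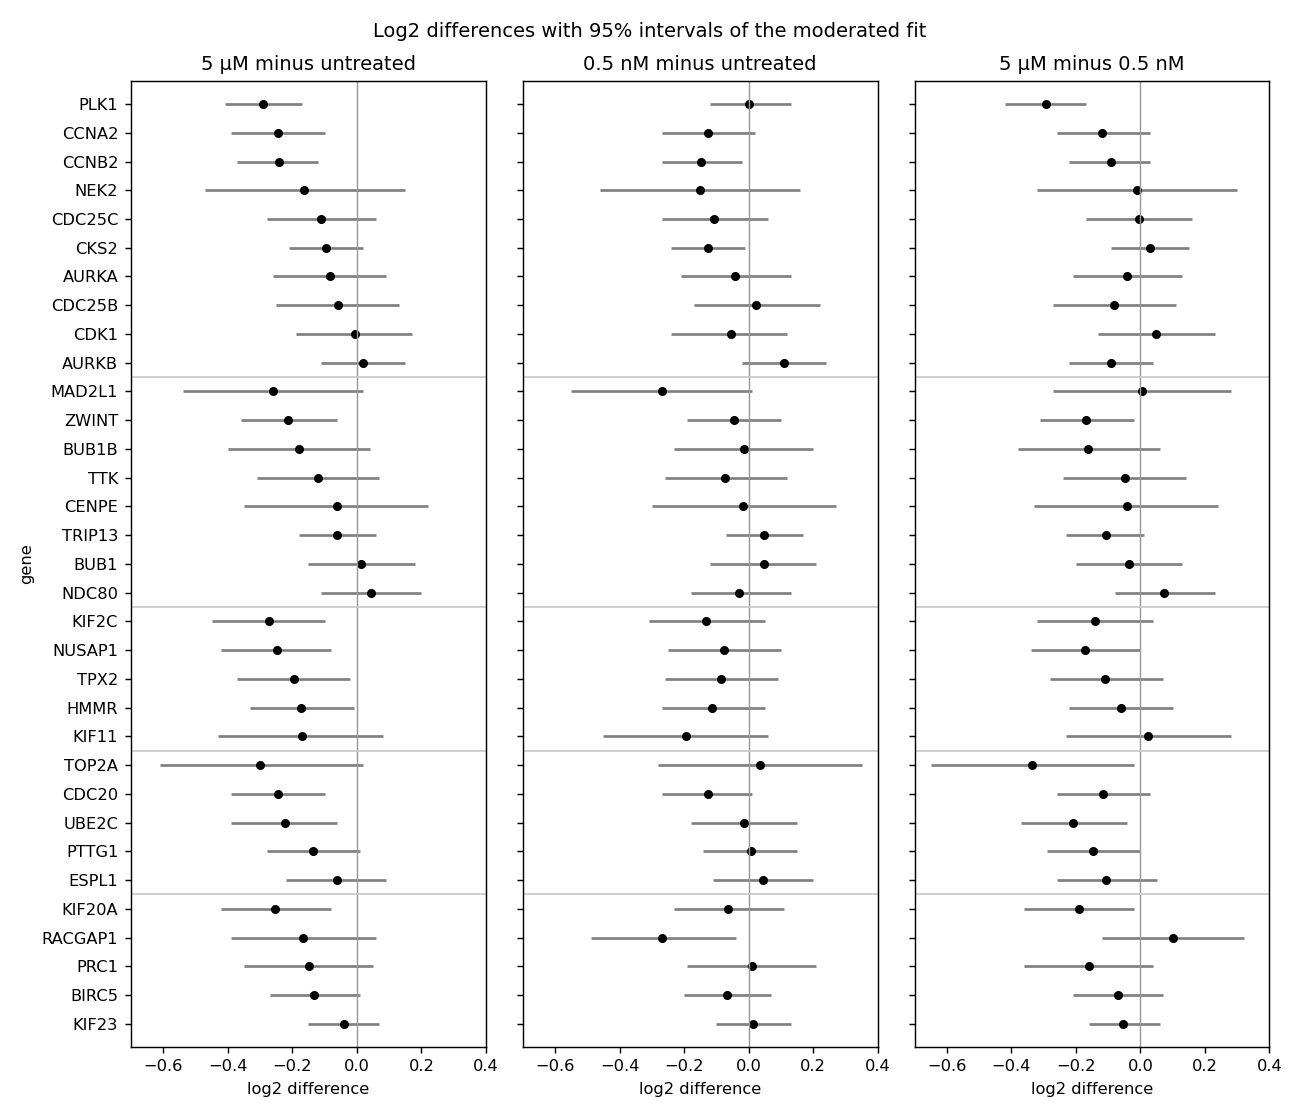
Differences in log2 level of the 33 tested mitotic genes, grouped by stage of mitosis, for 5 µM against untreated, 0.5 nM against untreated and 5 µM against 0.5 nM S100B, with 95% intervals of the limma fit. At 5 µM against untreated 30 of the 33 points lie below 0 and none passed the adjusted threshold; the panels share arrays.

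With 0.5 nM S100B the same genes lay closer to untreated cells. The difference was below 0 for 23 of the 33, against 59.1% of all probe sets, with a median of -0.06 and a range of -0.27 to 0.11. No member was called, and 0% of all probe sets were. At an unadjusted p under 0.05, 3 members were lower and none higher, against 2.49% and 0.806% of all probe sets; these were CCNB2, CKS2 and RACGAP1. The arrays of 4 members lay wholly below untreated, against 5.01%, and of none wholly above, against 1.97%. In the direct comparison of 5 µM with 0.5 nM, 27 members were below 0, against 55% of all probe sets, and the median was -0.09. No member was called, where 0.24% of probe sets were called lower and 0.0172% higher, 0.257% in all. At an unadjusted p under 0.05, 7 members were lower and none higher, against 2.92% and 1.73%. For 5 members the 5 µM arrays lay wholly below the 0.5 nM arrays, against 4.63%, and for none above, against 2.35%. The 3 comparisons share groups, so their values are given side by side and not as independent evidence.

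Promoters of mitotic genes often pair CCAAT boxes, bound by NF-Y, with a cell cycle homology region (CHR), bound by DREAM and MuvB complexes. The 5 promoters below were picked to show both kinds of motif: they belong to the 5 genes that hold both and whose difference at 5 µM had an unadjusted p under 0.05. Another 4 genes with such a p and a promoter entry do not hold both: CCNA2, KIF20A and NUSAP1 have CCAAT but no CHR letters, and KIF2C has neither. Each printed promoter is the 130 bases before a RefSeq start on GRCh38.p14, 5′ to 3′ on the gene's own strand. Capitals mark CCAAT, read as ATTGG on the opposite strand, and the CHR letters TTTGAA, read as TTCAAA. They lie at chr16:23678759-23678888 on the plus strand, chr15:59105016-59105145 (plus), chr1:43358851-43358980 (plus), chr10:56361274-56361403 (minus) and chr5:163460502-163460631 (plus).
PLK1: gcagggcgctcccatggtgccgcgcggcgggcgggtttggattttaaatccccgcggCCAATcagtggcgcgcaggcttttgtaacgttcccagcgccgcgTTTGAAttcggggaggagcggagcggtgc
CCNB2: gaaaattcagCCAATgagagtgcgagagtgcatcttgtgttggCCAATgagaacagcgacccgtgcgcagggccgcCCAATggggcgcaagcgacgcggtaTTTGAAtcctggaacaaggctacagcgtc
CDC20: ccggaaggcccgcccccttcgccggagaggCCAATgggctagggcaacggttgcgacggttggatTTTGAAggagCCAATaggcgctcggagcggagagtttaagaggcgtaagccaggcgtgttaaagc
ZWINT: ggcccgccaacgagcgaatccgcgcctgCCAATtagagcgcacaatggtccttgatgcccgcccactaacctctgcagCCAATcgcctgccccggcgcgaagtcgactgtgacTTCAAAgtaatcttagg
HMMR: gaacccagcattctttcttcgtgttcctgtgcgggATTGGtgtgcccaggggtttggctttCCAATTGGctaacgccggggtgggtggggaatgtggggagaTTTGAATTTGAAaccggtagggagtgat
In PLK1 the CCAAT letters began 73 bases and TTTGAA 29 bases before the start. CCNB2 held TTTGAA at the same distance of 29 bases, behind CCAAT at 120, 87 and 54 bases. CDC20 had CCAAT at 100 and 55 bases with TTTGAA between them at 65, and ZWINT had CCAAT at 102 and 52 bases with TTTGAA on the opposite strand at 17. In HMMR 2 TTTGAA matches stood side by side at 28 and 22 bases.

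The set of RefSeq promoters used here held 38 entries for 28 of the members with a probe set. Both strands of the 250 bases before each start were searched. The set had no entry for 6 tested members: AURKA, BIRC5, RACGAP1, TPX2, TTK and UBE2C. Of these 6, 2 were lower at 5 µM at an unadjusted limma p under 0.05. CCAAT was present in 76.3% of these entries, against 32.0% of all 35116 promoters of that length, and at least 2 copies in 42.1% against 9.53%. TTTGAA or TTCGAA was present in 44.7% against 14.3%, and both kinds of motif in 42.1% against 5.05%. Tested members with and without both motifs had the same median. The 14 genes with both had a median difference at 5 µM of -0.16 (range -0.30 to -0.01), and the 13 without both had -0.16 (range -0.27 to 0.04). CDK1 held both motifs and lay at -0.01, while KIF2C held neither and lay at -0.27. A match describes letters in this window and not binding.

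The cyclins, CDK1 and the mitotic kinases form the first group, with 10 tested genes. At 5 µM 9 of them were below 0, against 61.9% of all probe sets (group median -0.10). PLK1, the Polo-like kinase that acts from mitotic entry to cytokinesis, read 8.66, 8.51 and 8.62 on the untreated arrays, 8.59, 8.65 and 8.55 at 0.5 nM, and 8.29, 8.30 and 8.32 at 5 µM. All 3 arrays at 5 µM were below the other 6, whose lowest value was 8.51, and the untreated and 0.5 nM arrays overlapped. The difference at 5 µM was -0.29 ± 0.06 against untreated (95% interval -0.41 to -0.17) and -0.29 ± 0.06 against 0.5 nM (adjusted p = 0.0911), and at 0.5 nM it was 0.00 ± 0.06. When each array was left out in turn, the adjusted p at 5 µM ran from 0.093 to 0.464.

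CCNB2, cyclin B2, a partner of CDK1, read 9.59, 9.67 and 9.59 untreated, 9.43, 9.46 and 9.52 at 0.5 nM, and 9.29, 9.43 and 9.41 at 5 µM. Both doses lay below untreated without overlap, and the doses met at 9.43 when rounded. Its difference was -0.15 ± 0.06 at 0.5 nM and -0.24 ± 0.06 at 5 µM (limma adjusted p = 0.265). CCNA2, cyclin A2, which acts in S phase and at mitotic entry, read 8.20, 8.37 and 8.34 untreated, 8.24, 8.20 and 8.10 at 0.5 nM, and 8.03, 8.13 and 8.02 at 5 µM. Its 5 µM arrays lay below all untreated arrays (-0.25 ± 0.06, adjusted p = 0.348), but a second, dimmer CCNA2 probe set differed by only -0.07 ± 0.08 and its arrays overlapped.

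CKS2, a small subunit that binds CDKs, read 10.86, 10.77 and 10.87 untreated, 10.74, 10.64 and 10.74 at 0.5 nM, and 10.73, 10.74 and 10.74 at 5 µM. Both doses lay below untreated by a similar amount, -0.13 ± 0.05 at 0.5 nM and -0.09 ± 0.05 at 5 µM (adjusted p = 0.778). CDK1 itself was at -0.01 ± 0.08 (95% interval -0.19 to 0.17), against -0.37 to -0.12 for CCNB2; the intervals overlap and the difference between the genes was not tested. AURKB, the kinase of the chromosomal passenger complex, was the only member of this group above 0 (0.02 ± 0.06). Its deposited value was identical on 4 arrays, 7.86 on all 3 at 5 µM and on 1 at 0.5 nM. Exact repeats of a value on at least 2 arrays occurred in 53.2% of tested probe sets and 12 member genes. AURKA, which acts at spindle poles, was at -0.08 ± 0.08 on its brighter probe set and -0.16 ± 0.08 on the other, whose 5 µM arrays lay below untreated. The phosphatases that activate CDK1 were at -0.06 (CDC25B) and -0.11 (CDC25C), and the centrosome kinase NEK2 at -0.16 ± 0.14, all with overlapping arrays.

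**Figure D2:**
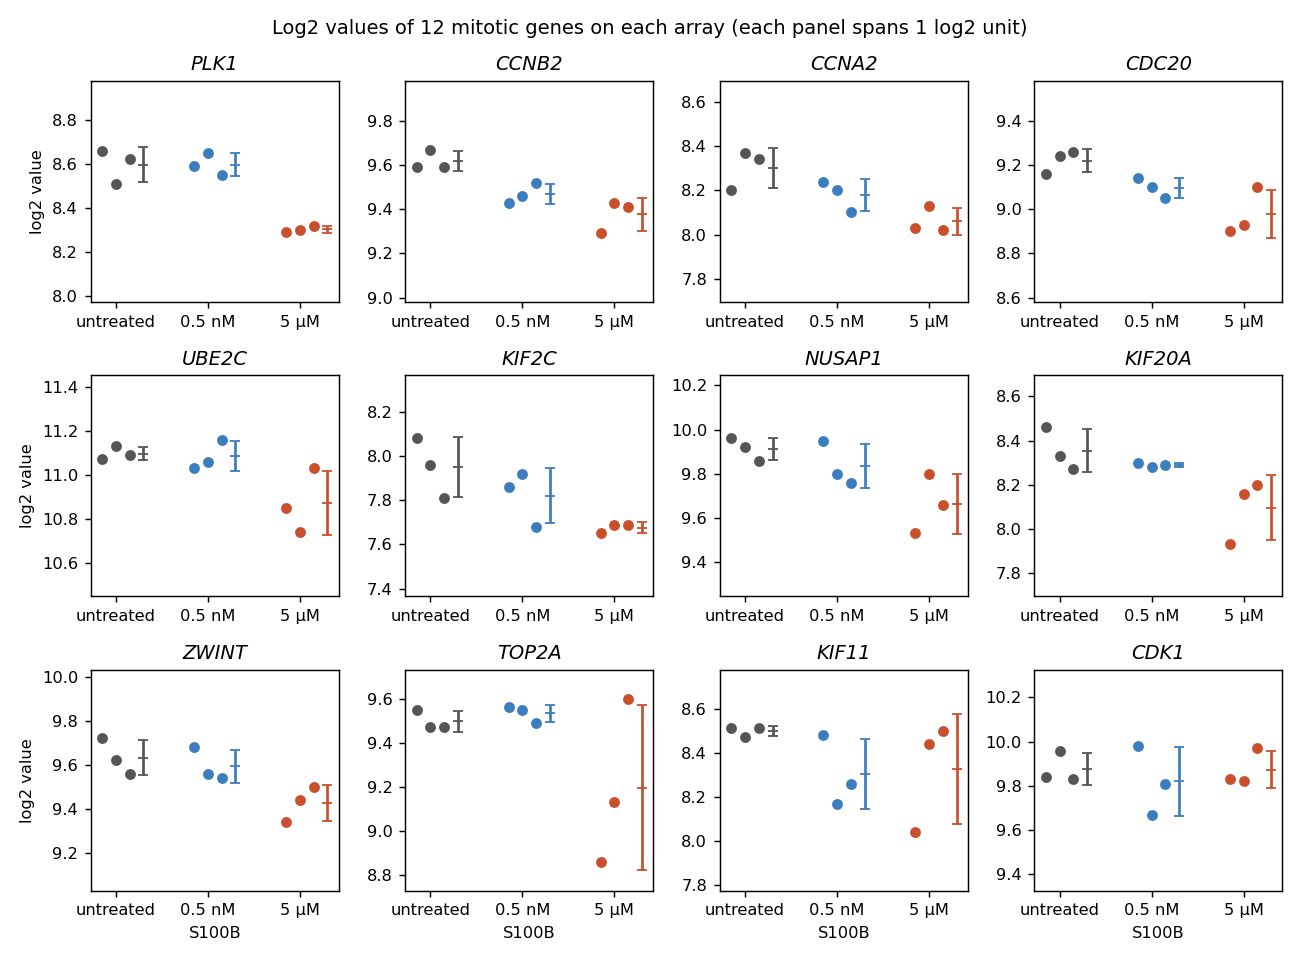
Log2 level of 12 mitotic genes on each of the 9 arrays, by group, with the group mean and SD beside the points; each panel spans 1 log2 unit around its gene's own level. PLK1 at 5 µM lies between 8.29 and 8.32, below every other array, while TOP2A at 5 µM spans 8.86 to 9.60.

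At the kinetochore and in the spindle checkpoint, 6 of 8 tested genes were below 0 at 5 µM (median -0.09). Of all probe sets 61.9% were. ZWINT, a kinetochore protein that recruits the ZW10 complex, read 9.72, 9.62 and 9.56 untreated, 9.68, 9.56 and 9.54 at 0.5 nM, and 9.34, 9.44 and 9.50 at 5 µM. The 5 µM arrays were below all 6 others, by -0.21 ± 0.07 against untreated (adjusted p = 0.509) and -0.17 ± 0.07 against 0.5 nM. MAD2L1, the checkpoint protein MAD2, read 10.58, 10.67 and 10.53 untreated, 10.65, 10.24 and 10.09 at 0.5 nM, and 10.23, 10.50 and 10.27 at 5 µM. Its mean was lower by similar amounts at both doses, -0.27 ± 0.13 and -0.26 ± 0.13 (adjusted p = 0.74 at 5 µM), with 1 array at 0.5 nM in the untreated range.

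BUB1B, the checkpoint kinase-like protein BUBR1, read 8.97, 8.92 and 9.13 untreated, 9.09, 8.96 and 8.92 at 0.5 nM, and 8.75, 8.67 and 9.06 at 5 µM. Replicates 1 and 2 at 5 µM were the lowest of the 9 arrays and replicate 3 lay among the untreated ones (-0.18 ± 0.10, adjusted p = 0.775). The remaining genes of the group differed by less. The checkpoint kinase TTK was at -0.12 ± 0.09, the kinetochore motor CENPE at -0.06 ± 0.13 and TRIP13, which disassembles checkpoint complexes, at -0.06 ± 0.05. BUB1, a checkpoint kinase, was at 0.01 ± 0.08 and NDC80, which binds microtubules at the kinetochore, at 0.04 ± 0.07. Both were above 0 and their arrays overlapped with untreated.

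The 5 tested spindle motors and microtubule proteins were all below 0 at 5 µM (median -0.19), against 61.9% of all probe sets. Of these, 4 were lower at an unadjusted p under 0.05, against 5.35% of all probe sets. KIF2C, a kinesin that depolymerises microtubule ends, read 8.08, 7.96 and 7.81 untreated, 7.86, 7.92 and 7.68 at 0.5 nM, and 7.65, 7.69 and 7.69 at 5 µM. The 5 µM arrays were tightly grouped below untreated (-0.27 ± 0.08, adjusted p = 0.46). The mean at 0.5 nM differed from untreated by -0.13 ± 0.08, and its arrays overlapped with both other groups. NUSAP1, a microtubule-bundling protein, read 9.96, 9.92 and 9.86 untreated, 9.95, 9.80 and 9.76 at 0.5 nM, and 9.53, 9.80 and 9.66 at 5 µM. It was lower without overlap at 5 µM (-0.25 ± 0.08, adjusted p = 0.492).

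TPX2, which activates Aurora A on spindle microtubules, read 10.05, 9.83 and 9.87 untreated, 9.78, 9.81 and 9.91 at 0.5 nM, and 9.58, 9.78 and 9.81 at 5 µM. Its 5 µM arrays lay just below untreated, the nearest pair being 9.81 and 9.83 (-0.19 ± 0.08, adjusted p = 0.70). HMMR, a spindle and hyaluronan-binding protein, was also lower without overlap (-0.17 ± 0.07, adjusted p = 0.703). KIF11, the motor that pushes spindle poles apart, was at -0.17 ± 0.12, with a wide spread at 5 µM. Replicate 1 read 8.04 and the others 8.44 and 8.50, against 8.51, 8.47 and 8.51 untreated, and without it the difference was -0.03.

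All 5 genes of anaphase and chromatid separation were below 0 at 5 µM (median -0.22), against 61.9% of all probe sets. CDC20, the activator of the anaphase-promoting complex, read 9.16, 9.24 and 9.26 untreated, 9.14, 9.10 and 9.05 at 0.5 nM, and 8.90, 8.93 and 9.10 at 5 µM. Both doses lay below untreated without overlap, by -0.13 ± 0.06 and -0.24 ± 0.06 (adjusted p = 0.348 at 5 µM). UBE2C, the ubiquitin-conjugating enzyme of that complex, read 11.07, 11.13 and 11.09 untreated, 11.03, 11.06 and 11.16 at 0.5 nM, and 10.85, 10.74 and 11.03 at 5 µM. Its 5 µM arrays lay below untreated (-0.22 ± 0.07, adjusted p = 0.582), while the 0.5 nM arrays spanned the untreated ones (-0.01 ± 0.07).

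TOP2A, the topoisomerase that untangles sister DNA, had the largest mean difference of the members at 5 µM, -0.30 ± 0.14 (adjusted p = 0.74), and the widest spread. It read 9.55, 9.47 and 9.47 untreated, 9.56, 9.55 and 9.49 at 0.5 nM, and 8.86, 9.13 and 9.60 at 5 µM. The last of these was the highest of all 9 arrays, so the groups overlapped. The difference was -0.13 without 5 µM replicate 1 and -0.50 without replicate 3 (adjusted p = 0.0602); against 0.5 nM, leaving out replicate 3 gave -0.54 ± 0.08 (adjusted p = 0.0352), the single call of a member over all settings run. PTTG1, securin, was lower without overlap by -0.14 ± 0.07, on a probe set that can also bind transcripts of near-identical relatives. ESPL1, separase, was at -0.06 ± 0.07.

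The 5 genes of the central spindle and cytokinesis were also all below 0 at 5 µM (median -0.15), against 61.9% of all probe sets. KIF20A, a kinesin that carries passenger proteins to the central spindle, read 8.46, 8.33 and 8.27 untreated, 8.30, 8.28 and 8.29 at 0.5 nM, and 7.93, 8.16 and 8.20 at 5 µM. Its 5 µM arrays were below all 6 others (-0.25 ± 0.08 against untreated, adjusted p = 0.478; -0.19 ± 0.08 against 0.5 nM). BIRC5, survivin, a subunit of the chromosomal passenger complex, read 9.70, 9.73 and 9.66 untreated, 9.73, 9.62 and 9.55 at 0.5 nM, and 9.65, 9.49 and 9.55 at 5 µM. The 5 µM arrays lay below untreated by a narrow gap (-0.13 ± 0.06, adjusted p = 0.74).

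PRC1, which bundles antiparallel microtubules, read 9.33, 9.18 and 9.18 untreated, 9.39, 9.10 and 9.23 at 0.5 nM, and 8.99, 9.01 and 9.23 at 5 µM. Replicates 1 and 2 at 5 µM were the lowest arrays, and replicate 3 lay in the untreated range (-0.15 ± 0.09, adjusted p = 0.793). RACGAP1, a centralspindlin subunit, read 9.96, 10.09 and 9.93 untreated, 9.99, 9.67 and 9.52 at 0.5 nM, and 9.81, 9.85 and 9.82 at 5 µM. Its difference was -0.27 ± 0.10 at 0.5 nM (unadjusted p = 0.0239) and -0.17 ± 0.10 at 5 µM (adjusted p = 0.794), and that between the doses was within their spread (0.10 ± 0.10). The value at 0.5 nM was -0.16 without replicate 3 of that dose and -0.40 without its replicate 1. KIF23, its centralspindlin partner, was dim and at -0.04 ± 0.05.

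The lower level of the members at 5 µM was uneven between replicates. The mean over the 33 genes was 8.93, 8.91 and 8.90 untreated, 8.91, 8.82 and 8.82 at 0.5 nM, and 8.68, 8.78 and 8.84 at 5 µM. As group means this was 8.91 ± 0.016 untreated, 8.85 ± 0.052 at 0.5 nM and 8.76 ± 0.078 at 5 µM (SD, n = 3). All 3 arrays at 5 µM lay below untreated, with replicate 1 lowest, and 0.5 nM overlapped with both. On 0.5 nM replicate 1, 23 of 33 members lay above their own group mean, as did 63.8% of all probe sets there, against 39.7% to 50.4% on the other arrays; its part in the 0.5 nM values was not tested. Replicate 1 at 5 µM was the lowest of the 9 arrays for 19 of 33 genes, replicate 2 for 4 and replicate 3 for 3. The matching shares of all probe sets were not counted. Below all 3 untreated values lay 28, 24 and 17 members on these arrays in turn, against 33.8%, 34.1% and 35.6% of all probe sets. At 0.5 nM these counts were 7, 17 and 17, against 20.3%, 34.2% and 39.4%. Relative to the untreated mean, the anaphase group was at -0.31, -0.25 and -0.01 at 5 µM, so it overlapped with untreated. The spindle group was at -0.32, -0.14 and -0.18; the difference between the groups was not tested.

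**Figure D3:**
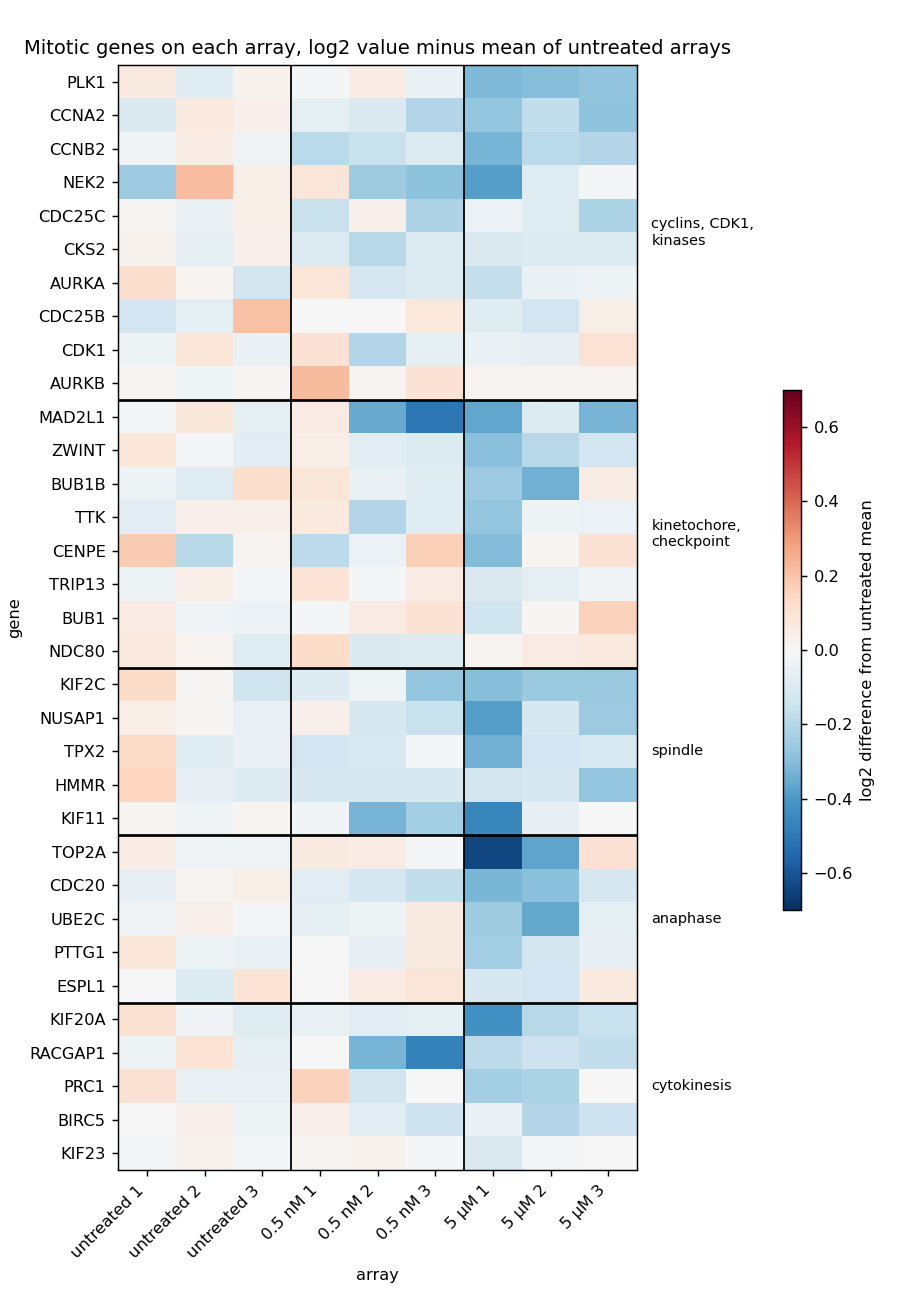
Log2 level of each of the 33 tested mitotic genes on each of the 9 arrays, relative to that gene's untreated mean, by stage. Blue is lower and red higher. The 5 µM replicate 1 column is the lowest of 9 for 19 genes, a count without a matching share of all probe sets. Replicate 3 is the palest of the 5 µM columns.

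**Figure D4:**
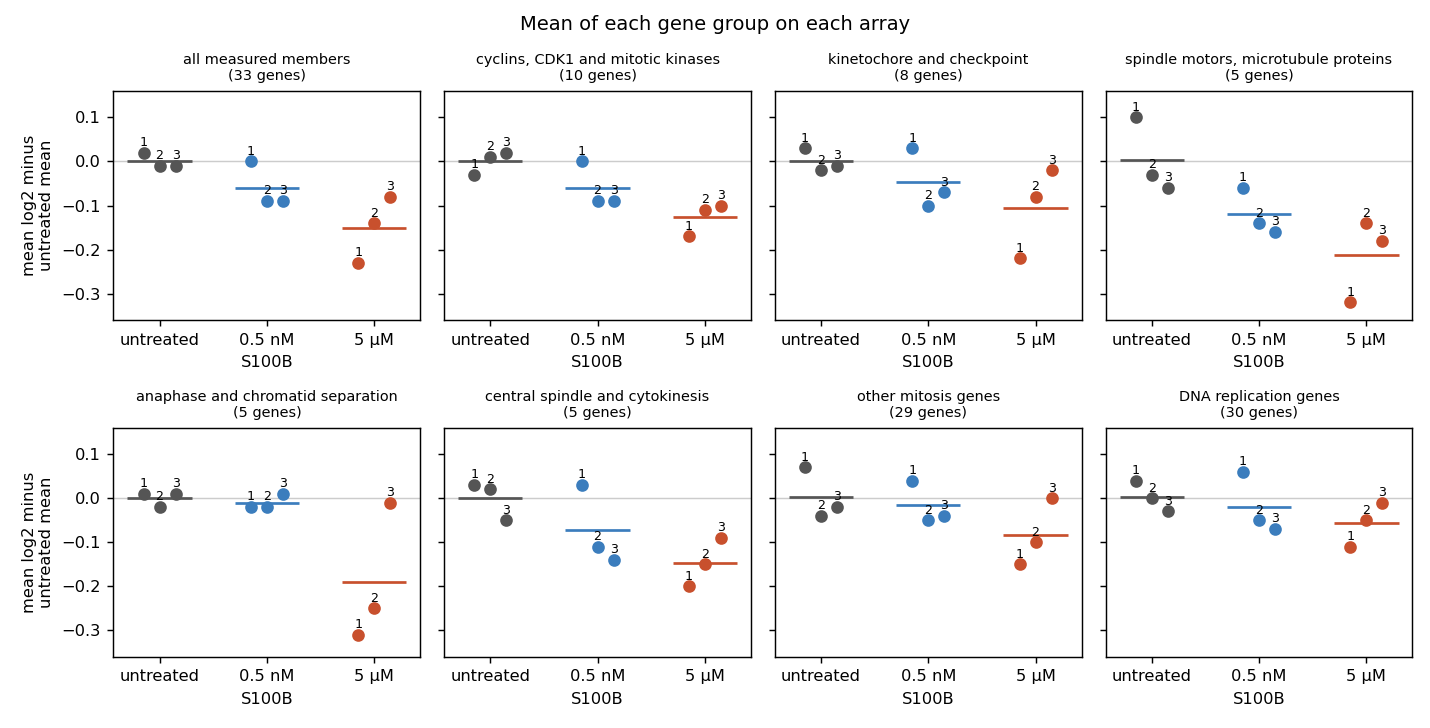
Mean log2 level of all tested members, each stage group, other mitosis genes and DNA replication genes on each array, relative to the untreated mean, with a point per array labelled by its replicate number and a line at the group mean. The 3 arrays at 5 µM lie below the untreated arrays in every stage group except anaphase, where replicate 3 is at -0.01; in the kinetochore group replicate 3 and the lowest untreated array both round to -0.02.

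Within groups, after group means were taken out, pairs of members had a median correlation of 0.247 over the 9 arrays, and 71% of 528 pairs were above 0. Over all pairs of probe sets the median was 0.0332 and 52.6% were above 0. The members' median was 0.097 with quantile normalization, and 0.125 when 5 µM replicate 1 was left out. The members closest to the mean of the others were KIF11 (r = 0.94), ZWINT (0.86), PRC1 (0.81), TOP2A (0.78) and TTK (0.77). PLK1 (0.11) and CCNA2 (0.06) hardly followed it, and CDC25C went against it (-0.59). These correlations rest on shared arrays with 3 per group and are a description. RNA quality and spike-in values of 5 µM replicate 1 lay within the range of the other arrays. Its ACTB 3′ minus 5′ was -0.11 against -0.16 to 0.14, and its spike-in controls 9.36 against 8.70 to 9.45. The lowest spike-in value, 8.70, was that of untreated replicate 1. The highest 3′ minus 5′ values were those of 5 µM replicate 3, at 0.14 for ACTB and 0.40 for GAPDH. A link of these values to the mitotic levels was not tested.

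Other mitosis genes and genes of neighbouring cell cycle steps had smaller median differences at 5 µM than the members. Over all probe sets, 61.9% were below 0, and at an unadjusted p under 0.05, 5.35% were lower and 1.49% higher. Of 53 other mitosis genes, 29 were tested and none called; 23 were below 0 at 5 µM, 3 had an unadjusted p under 0.05 and the median was -0.07. The 4 with the smallest p were CDKN3, a phosphatase acting on CDKs (-0.26 ± 0.06, adjusted p = 0.302), the mitotic kinase PBK (-0.32 ± 0.10), CKS1B (-0.21 ± 0.08) and MAD1L1, the checkpoint partner of MAD2 (-0.19 ± 0.09). The 6 genes of this list above 0 included MKI67 (0.14 ± 0.16) and NUMA1 (0.14 ± 0.15). At 0.5 nM the MKI67 arrays lay wholly above untreated (0.30 ± 0.16). It was the 1 gene of the list to do so, against 1.97% of all probe sets, and 1 gene lay wholly below, against 5.01%. Of 35 DNA replication genes 30 were tested, none was called, 23 were below 0 and 2 had an unadjusted p under 0.05 (median -0.06), led by GINS2 (-0.18 ± 0.06), POLA1 (-0.19 ± 0.08), GMNN (-0.21 ± 0.09) and RPA3 (-0.11 ± 0.05). Of 25 G1/S regulators and CDK inhibitors 16 were tested, none was called, 9 were below 0, and 1 had an unadjusted p under 0.05 in each direction (median -0.05). RBL2, the pocket protein p130 of the DREAM complex, was higher without overlap (0.17 ± 0.05, adjusted p = 0.463), and E2F2 (-0.14 ± 0.06), CDK2 (-0.20 ± 0.11) and CDKN1C (0.12 ± 0.07) followed by p. The 5 µM arrays lay wholly below untreated for 2 other mitosis genes, 7 DNA replication genes and 1 G1/S gene, against 9.47% of all probe sets. They lay wholly above for 0, 1 and 1, against 2.86%. The array means of all 3 lists overlapped between 5 µM and untreated cells, where those of the mitotic members did not. Those of the 3 epithelial markers above the filter did not overlap either. The difference between lists was not tested.

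Of the listed markers of other cells some lay above the filter and some below. Of 12 mesenchymal and Schwann-like markers with a probe set 6 lay above it, with VIM at 10.84 and TWIST1 at 10.32, and COL3A1 and YAP1 were below it at 4.67 and 4.78. Among those above the filter, 4 were below 0 at 5 µM, with array means of 8.47 to 8.53 against 8.50 to 8.55 untreated. Of 7 astrocyte and oligodendrocyte markers with a probe set 3 lay above the filter (GFAP and AQP4 did not), and 2 of them were below 0 at 5 µM, at 6.45 to 6.50 against 6.48 to 6.51. Of 5 leukocyte markers with a probe set 3 lay above it, CD3E, HLA-DRA (6.71) and CD74 (6.47), and all 3 were below 0 at 5 µM, with array means of 6.72 to 6.85 against 6.85 to 6.99 untreated. Of 7 epithelial markers with a probe set 3 lay above it, KRT18, ELF3 (6.45) and KRT8 (5.98), and these were also below 0, at 6.40 to 6.42 against 6.46 to 6.62. Their part in the lower mitotic levels was not tested.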

How the data were processed

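RNA was labelled as biotin cRNA and hybridised to 9 Affymetrix arrays. The deposited values are log2 levels, 1 per probe set and array, made with GCRMA per the submitters' processing notes (version not stated); GCRMA can compress differences near background. Of 8793 probe sets 47 controls were removed, and the dimmest 2916 by mean over all arrays (mean up to 5.95) were left out, leaving 5830. Probe sets were named by the platform annotation updated through RefSeq, and a gene took its brightest probe set. Groups came from sample titles. The model, limma 3.58.1 (R 4.3.3), was fitted to all 9 arrays with 1 factor of 3 groups, no covariate and Benjamini-Hochberg adjustment. The procedure was tested on simulated data with noise independent between probe sets. That test checked the code, and no result on the members rests on it. The members and lists were chosen with earlier results of these data known. Named with all arrays were, in each stage, up to 3 members with the smallest p at 5 µM plus the brightest. Further members are given by their values. In each other list the 4 genes with the smallest p are given by their differences only, and MKI67 and NUMA1 were added as genes above 0. Alternatives changed the scaling, filter, test, arrays and probe set rule. Scanner intensities were not used here.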

Additional observations from a re-analysis of the deposited data

How the results depend on the processing

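The count of members past the threshold was 0 in every comparison and setting run, except that TOP2A passed for 5 µM against 0.5 nM without 5 µM replicate 3, so this count ranged from 0 to 1 over the fits that left out an array. Over those fits the mean difference of the members ran from -0.183 to -0.106 at 5 µM, from -0.091 to -0.044 at 0.5 nM and from -0.123 to -0.046 between doses, and 28 to 31 members were below 0 at 5 µM. The smallest adjusted p of a member at 5 µM ran from 0.0602 to 0.381 over those fits and from 0.0739 to 0.232 over 9 other alternatives. The median correlation between members, 0.247 in the report, ran from 0.125 (without 5 µM replicate 1) to 0.315 when an array was left out. It was 0.097 with quantile normalization and 0.358 with the replicate block, and the cause was not tested. Arrays with the same replicate number did not deviate together for every number, with correlations of 0.0311 to 0.0707 for number 1, -0.000351 to 0.229 for number 2 and 0.298 to 0.33 for number 3, so the numbers were not taken as pairs. With the replicate block 0 members passed in each comparison (smallest adjusted p 0.177 at 5 µM). Leaving out replicate 3 of every group, chosen after seeing the data, gave member medians of -0.20 at 5 µM, -0.06 at 0.5 nM and -0.11 between doses, with 0 called. With a promoter window of 100 bases, 36.8% of member entries held both motifs against 0.988% of all. With 3 arrays per group, the 95% interval of the median probe set reached 0.156 to either side, before any adjustment. Larger single differences were also not called in the main fit, such as -0.30 for TOP2A at 5 µM against untreated.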
